A study of Mus musculus with 12 samples.

Results

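The genes described are 9 genes of the circadian clock (Arntl, Clock, Per1, Per2, Per3, Cry1, Nr1d1, Nr1d2 and Dbp) and Noct, the gene of the rhythmic protein nocturnin. They are 10 of 48795 annotated genes, found by symbol, and all 10 passed the filter on low counts that left 18153 genes for testing. RNA of mouse fetal membranes, the sacs around the fetus, was sequenced in 12 libraries, 3 for each of 4 groups. E12 WT and E18 WT are wild-type membranes of strain C3H at embryonic days 12 and 18, and E12 DKO and E18 DKO are membranes at the same ages with a double knockout of biglycan (Bgn) and decorin (Dcn) in mice labelled C3H and C57BL/6. Strain and genotype therefore cannot be told apart. The E18 WT libraries are named labelled E18 WT throughout, for a reason given with the globins. The labels do not say whether libraries of a group came from separate animals or litters, so p-values measure only the spread between these libraries. They also give no hour of dissection, so time of day cannot be told apart from stage, genotype or strain. Noct was chosen by its counts in the wild-type libraries, where it differed between the 2 groups, and the 9 clock genes were added to it by name. Its values there, and in each contrast that uses a wild-type group, are given as a description with no test.

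The mammalian clock is a feedback loop of transcription. BMAL1 (the product of Arntl) and CLOCK (or its relative NPAS2) bind E-box DNA as a pair and switch on the Per and Cry genes, whose proteins return to the nucleus and hold the pair back. The same pair switches on Nr1d1 and Nr1d2, which encode the repressors REV-ERB alpha and beta, and these bind ROR elements and repress Arntl. Dbp encodes an activator that acts at D-box DNA. In adult tissues with a running clock, Nr1d1, Dbp and then Per transcripts reach their maximum at a time of day when Arntl is low. Nocturnin is a relative of deadenylases, was first described as a rhythmic transcript of the retina, and removes a phosphate from NADP(H). Per1 is also a direct target of the glucocorticoid receptor and of cAMP signalling, and its transcript can rise within an hour of a stimulus.

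The DNA elements named above were searched in the RefSeq promoters of build GRCm38, 250 bases before to 50 after each start. Of the 10 genes, 9 had an entry, with 13 windows in all, and Per2 had none. A gene is named below if any of its windows matched, whereas the shares are of single windows. The letters searched, on both strands, were CACGTG (E-box, in 7.15% of all 32851 windows), TTATGNAA (D-box, 3.38%), TAGGTCA preceded by A and any 2 bases (ROR element, 0.7%) and TGACGTCA (CRE, 1.79%). The E-box letters were in the windows of Per1 and Cry1, those of the D-box in Per1, Per3 and Noct, those of the ROR element in Arntl, and those of the CRE in 0 of the 9 genes. The stretches of 4 genes are printed as examples, 5′ to 3′ on the gene's strand, with the match in capitals. Those of Per3 are not printed. A link between matches and transcript levels was not tested. A match is a description of the sequence and not a bound site.
Per1, E-box at position -166, chr11:69098756-69098815, plus strand: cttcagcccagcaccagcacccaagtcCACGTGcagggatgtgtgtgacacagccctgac
Per1, D-box at position -24, chr11:69098899-69098948, plus strand: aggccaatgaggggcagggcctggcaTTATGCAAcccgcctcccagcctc
Cry1, E-box at position -60, chr10:85185082-85185141, minus strand: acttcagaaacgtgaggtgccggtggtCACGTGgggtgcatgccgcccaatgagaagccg
Noct, D-box on the opposite strand at position -94, chr3:51224327-51224386, plus strand: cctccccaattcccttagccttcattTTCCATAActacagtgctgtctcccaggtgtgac
Arntl, ROR element at position 27, chr7:113207528-113207557, plus strand: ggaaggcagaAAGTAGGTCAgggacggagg

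The libraries held 19967593 to 33065424 counts. Bgn was at 14.3 to 25.1 CPM in the DKO libraries and at 223 to 686 CPM in the wild-type libraries, where CPM is the count scaled to a common library size by TMM factors, and Dcn was at 4.67 to 8.44 and 198 to 978 CPM. The share of Hbb-y and Hbb-bh1, the embryonic forms, in all beta-globin counts was 82.3 to 85.1% in E12 DKO and 1.33 to 2.67% in E18 DKO. It was 74.8 to 87.8% in labelled E18 WT and 14.8, 95.1 and 97.1% in E12 WT 1, 2 and 3, so the globins of all 3 labelled E18 WT libraries and of E12 WT 1 go against their stage labels. Labelled E18 WT 3 carried 901 CPM of decidua and trophoblast markers, against at most 50.1 CPM in the other 11, and E12 WT 3 had a mitochondrial share of 21.2%, against at most 7.78% elsewhere. Visceral yolk sac endoderm markers such as Afp summed to 53300 to 165000 CPM in every library. Gabrp, on a list of 9 markers of amnion-type epithelium, was at only 0.128 to 0.218 CPM in E18 DKO. It was uneven in other groups, at 44.7, 49.9 and 0.886 CPM in E12 DKO and 4.52, 45 and 269 CPM in labelled E18 WT. The 9 markers did not move together, as given below. In bulk tissue, fewer cells of a type and less RNA per cell cannot be told apart.

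In the membranes all 10 genes were expressed at low to moderate levels. On the scale of CPM per kilobase of exon (RPKM), in E12 DKO, Per2 was highest at 9.01, followed by Per1 at 6.01, Cry1 at 3.75 and Dbp at 3.69. Below them lay Nr1d1 at 2.76, Clock at 2.53, Noct at 1.71, Nr1d2 at 1.18, Arntl at 1.1 and Per3 at 0.737. Neighbouring ranges over the 3 libraries overlapped for Cry1 and Dbp, for Nr1d1 and Clock, and for Nr1d2 and Arntl. In labelled E18 WT Noct had the highest RPKM of the 10, at 5.94, beside 5.36 for Per2, and their ranges (4.34 to 9.09 and 4.09 to 6.03) overlapped. Between the lowest and the highest library, Clock and Per3 spanned 1.95-fold and 2.08-fold in CPM, Dbp and Per1 8.12-fold and 7.35-fold, and Noct 28.9-fold.

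**Figure D1:**
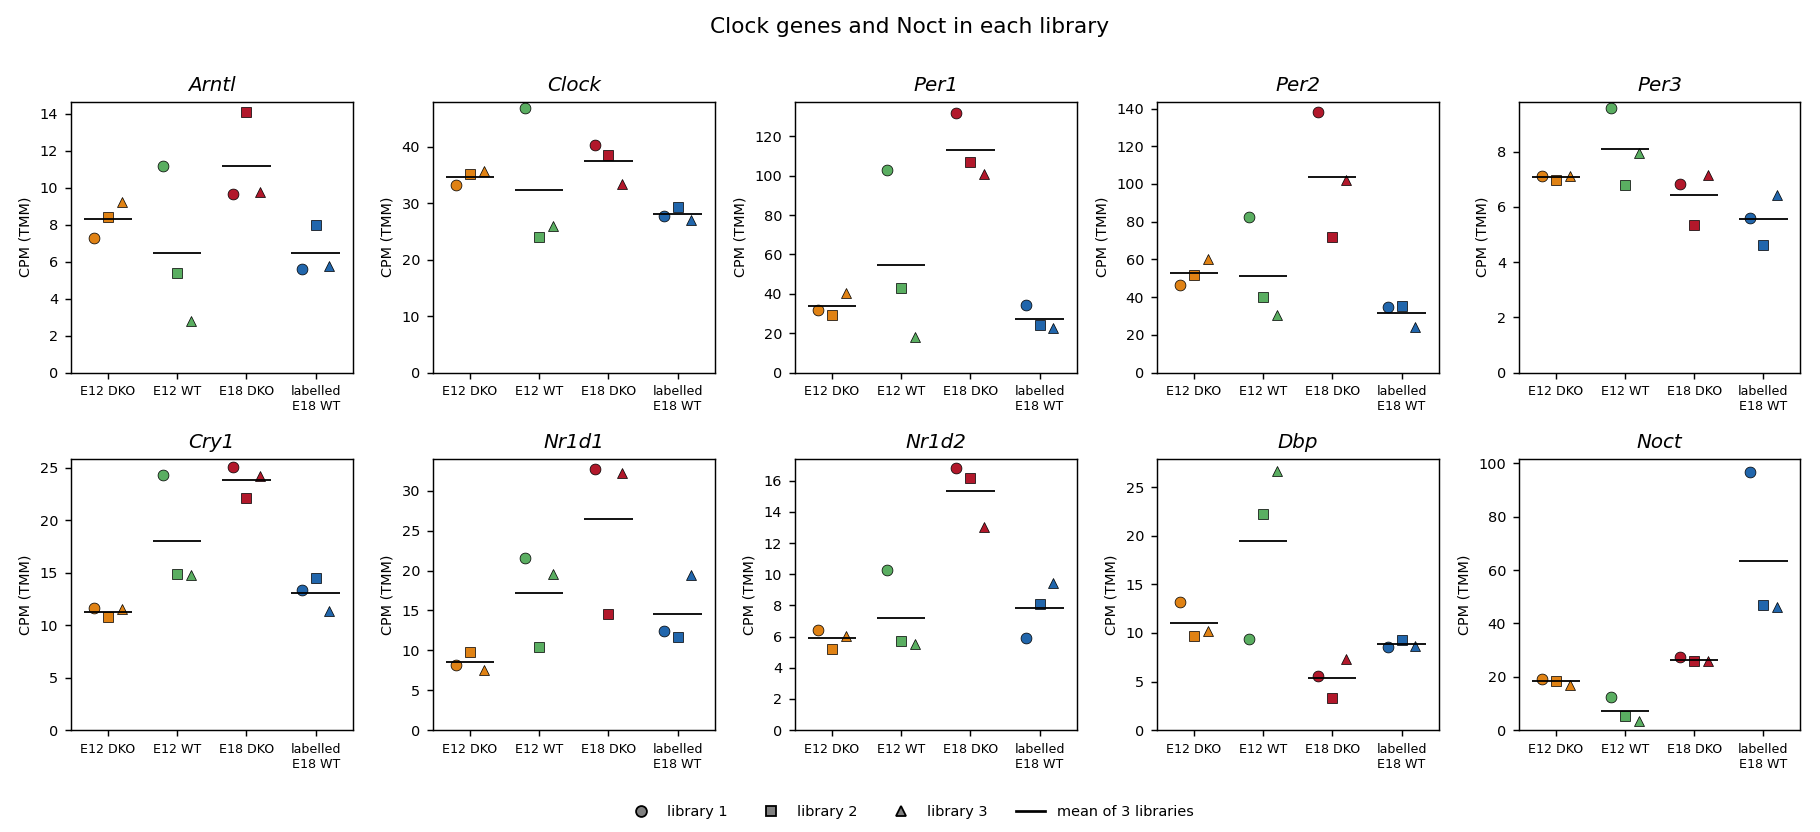
CPM (vertical axes, from 0) of the 10 genes in each library (points, shape by library number) of the 4 groups, with the mean of 3 libraries as a line. Noct is highest in labelled E18 WT, at 46.2 to 96.9 CPM, and Per1 in E18 DKO, at 101 to 132 CPM, with E12 WT 1 close to it at 103 CPM.

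The stage comparison within the DKO, E18 DKO against E12 DKO, does not use the libraries by which Noct was chosen, and all 10 genes were tested. Per1 rose 3.34-fold by E18, Nr1d1 3.12-fold, Nr1d2 2.59-fold, Cry1 2.11-fold and Per2 1.97-fold, and Dbp was 2.04-fold lower at E18. Arntl, Clock, Per3 and Noct did not pass the test. In all, 5 of the 10 were higher and 1 lower by the edgeR quasi-likelihood test, with p-values adjusted (Benjamini-Hochberg) over all tested genes, where 46% of all genes were called, 23.2% higher and 22.8% lower. Their median log2 fold change was 0.75, beside -0.02 over all tested genes. In the 3 E18 DKO libraries 7 of the 10 lay wholly above the 3 E12 DKO libraries and 1 wholly below, which was so of 33.1% and 34.1% of all tested genes.

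Among the repressors of the loop, Per1 (chromosome 11, 69095217 to 69109960, plus strand) had 31.9, 29.1 and 40.5 CPM in E12 DKO versus 132, 107 and 101 CPM in E18 DKO. Every E18 library lay far above every E12 library, and the log2 fold change was 1.74 ± 0.47 (SE, n = 3 per group, edgeR adjusted p = 0.0118). Cry1 (chromosome 10, 85131702 to 85185054, minus strand), whose protein is a main repressor of CLOCK and BMAL1, had 11.6, 10.8 and 11.5 CPM in E12 DKO. It had 25.1, 22.1 and 24.2 CPM in E18 DKO, with a wide gap between the groups (1.08 ± 0.21, adjusted p = 0.00214 by edgeR). Per2 (chromosome 1, 91415982 to 91459324, minus strand), the partner of the cryptochromes, had 46.3, 51.7 and 60.3 CPM in E12 DKO versus 138, 71.8 and 102 CPM in E18 DKO. Its groups did not overlap, but E18 DKO 2 was close to the E12 range (0.98 ± 0.35, edgeR adjusted p = 0.0407). The call of Per2 ended without E12 DKO 1, 2 or 3 (adjusted p = 0.123, 0.103 and 0.069), E18 DKO 1 or 3 (0.159 and 0.0772) or labelled E18 WT 1 or 2 (0.0544 and 0.0541), which enter through the shared fit, and with scaling by library size alone (0.144). Per3 (chromosome 4, 151003652 to 151044665, minus strand), a period gene that is dispensable for rhythm in mice, had 7.13, 6.98 and 7.12 CPM in E12 DKO versus 6.82, 5.33 and 7.14 CPM in E18 DKO. Those ranges overlapped, and Per3 did not pass the test (-0.14 ± 0.23, 95% interval -0.67 to 0.39, edgeR adjusted p = 0.638).

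Nr1d1 and Nr1d2, which encode the repressors of Arntl, both rose. Nr1d1 (chromosome 11, 98767932 to 98775333, minus strand) had 8.15, 9.83 and 7.48 CPM in E12 DKO versus 32.7, 14.5 and 32.2 CPM in E18 DKO. E18 DKO 2 was below the other two E18 libraries but above all 3 at E12 (1.64 ± 0.36, edgeR adjusted p = 0.00411). Nr1d2 (chromosome 14, 18204054 to 18239127, minus strand) had 6.44, 5.22 and 6.07 CPM in E12 DKO versus 16.8, 16.2 and 13 CPM in E18 DKO (1.37 ± 0.29, edgeR adjusted p = 0.00292). Dbp (chromosome 7, 45705088 to 45710203, plus strand), the D-box activator, had 13.2, 9.73 and 10.2 CPM in E12 DKO versus 5.61, 3.28 and 7.35 CPM in E18 DKO. All E18 libraries were lower (-1.03 ± 0.38, edgeR adjusted p = 0.0427). That call ended without E12 DKO 1, 2 or 3 (0.126, 0.0657 and 0.0728), E18 DKO 1 or 2 (0.0923 and 0.13), E12 WT 2 (0.056) or labelled E18 WT 1, 2 or 3 (0.056, 0.0554 and 0.0521), and also by limma voom (0.0526), with the same direction in each. Those of Per1, Cry1, Nr1d1 and Nr1d2 held in each of these fits. All 4 tested contrasts share libraries with at least 1 other.

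Arntl and Clock, which encode the main activator pair, did not pass. Arntl (chromosome 7, 113207465 to 113314126, plus strand) had 7.26, 8.44 and 9.22 CPM in E12 DKO versus 9.67, 14.1 and 9.75 CPM in E18 DKO. Each E18 library was above each E12 library, by a small margin for 2 of the 3 (0.43 ± 0.41, 95% interval -0.52 to 1.37, edgeR adjusted p = 0.41). Clock (chromosome 5, 76209868 to 76304792, minus strand) had 33.3, 35.2 and 35.7 CPM in E12 DKO versus 40.3, 38.6 and 33.4 CPM in E18 DKO, with overlapping ranges (0.11 ± 0.23, 95% interval -0.41 to 0.63). Scaled by library size alone, which moves the median of all genes to -0.37, Clock was at -0.23, and the direction of this value is open to the scaling. Noct had 19.3, 18.5 and 17 CPM in E12 DKO versus 27.4, 25.8 and 25.9 CPM in E18 DKO. These tight groups did not overlap, yet the value of 0.53 ± 0.41 did not pass with the spread shared over all 12 libraries (edgeR adjusted p = 0.305) and passed when only these 6 libraries were fitted (adjusted p = 0.00639, with 59.4% of all genes called in that fit).

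**Figure D2:**
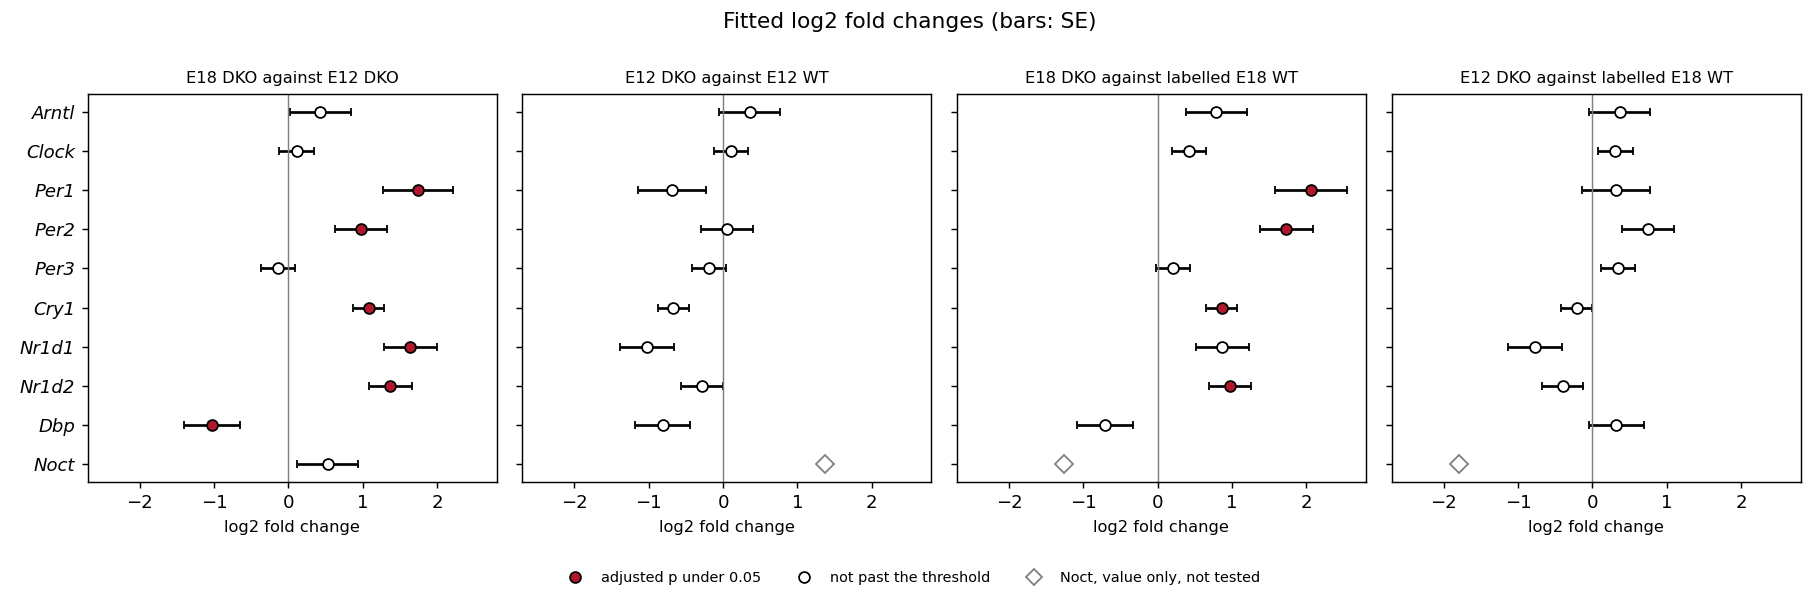
Fitted log2 fold changes (horizontal axes) of the 10 genes in the 4 tested contrasts, with standard errors as bars, filled where the adjusted p was under 0.05, and Noct as an open diamond where it was not tested. Per1, Per2, Cry1 and Nr1d2 are filled and to the right of 0 in both contrasts of E18 DKO, and no gene is filled in the 2 contrasts of E12 DKO with wild-type libraries.

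The comparison of genotypes labelled E18 set the same E18 DKO libraries against those labelled E18 WT. It shares libraries with the stage comparison and is no independent repeat of it. The embryonic share of beta-globin was 1.33 to 2.67% in E18 DKO and 74.8 to 87.8% in labelled E18 WT. Stage, genotype and strain therefore cannot be told apart in this contrast. Per1 was 4.16-fold higher in E18 DKO, Per2 3.31-fold, Nr1d2 1.96-fold and Cry1 1.82-fold, and 0 of the 9 clock genes were lower past the threshold. Over all tested genes 42.3% were called, 20.5% higher and 21.8% lower, and the median log2 fold change of the 9 was 0.86, beside -0.04 over all genes. Ranges did not overlap for 6 genes that were higher and 1 that was lower (27.8% and 29.1% of all tested genes). In labelled E18 WT Per1 had 34.2, 24.4 and 22.8 CPM and Per2 had 35, 35.3 and 23.9 CPM. Both lay far below the E18 DKO libraries and within or below the range of E12 DKO and E12 WT (2.06 ± 0.48, edgeR adjusted p = 0.0059, and 1.73 ± 0.36, adjusted p = 0.00329). Cry1 had 13.4, 14.5 and 11.4 CPM (0.86 ± 0.21, edgeR adjusted p = 0.00751). Nr1d2 had 5.92, 8.12 and 9.44 CPM (0.97 ± 0.28, edgeR adjusted p = 0.0179), and its call ended without E18 DKO 1 (0.0592) or labelled E18 WT 1 (0.0742). With scaling by library size alone, Cry1 and Nr1d2 both missed the threshold (0.0725 and 0.106).

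The other 5 clock genes missed the threshold between E18 DKO and labelled E18 WT. Nr1d1 had 12.4, 11.7 and 19.4 CPM in labelled E18 WT. Only E18 DKO 2 overlapped that range, and the log2 fold change of 0.87 ± 0.36 had an edgeR adjusted p of 0.0692. It passed without E18 DKO 2 (1.17, adjusted p = 0.0185), without labelled E18 WT 3 (1.14, 0.0447) and without E12 WT 2 (0.90, 0.0432). Arntl had 5.62, 7.97 and 5.75 CPM in those libraries, Clock had 27.8, 29.3 and 27.1 CPM, and Dbp had 8.52, 9.26 and 8.7 CPM, and none of these ranges reached that of E18 DKO. Their log2 fold changes were 0.79 ± 0.41, 0.42 ± 0.23 and -0.71 ± 0.38 (edgeR adjusted p = 0.141, 0.159 and 0.149), and without E12 WT 1 all 3 passed (0.0362, 0.013 and 0.0438). Without that library 50.5% of all genes were called. Per3 had 5.58, 4.6 and 6.44 CPM, and its interval ran from -0.32 to 0.74.

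Other gene groups moved with the E18 DKO libraries. The 8 glucocorticoid-responsive genes summed to 1620 to 2860 CPM there, against 212 to 236 CPM in E12 DKO and 180 to 242 CPM in labelled E18 WT. The 18 immediate early genes, whose transcripts appear within minutes of a stimulus and can rise during dissection, summed to 1500 to 2250 CPM in E18 DKO, 260 to 310 CPM in E12 DKO and 321 to 498 CPM in labelled E18 WT. E12 WT 1 had 949 and 1080 CPM of these 2 sums and E12 WT 2 and 3 had 188 and 126 CPM, and 459 and 300 CPM. The counts of called markers that follow are between the DKO stages, where 23.2% of all tested genes were called higher and 22.8% lower. Markers of mesenchyme summed to 2870 to 4900 CPM in E18 DKO and 12800 to 15900 CPM in E12 DKO, with 6 of 8 lower and 2 higher. Those of amnion-type epithelium summed to 5060 to 6430 and 2350 to 2750 CPM, with 4 of 9 higher and 2 lower. Most of that rise was Krt8 and Krt18, at means of 1630 and 2430 CPM in E18 DKO and 598 and 703 CPM in E12 DKO. Krt8, Krt18, Krt19 and Epcam lay wholly higher, and Gabrp, Tfap2a, Tfap2c and Cldn6 wholly lower (33.1% and 34.1% of all tested genes). Macrophage markers summed to 828 to 1200 and 347 to 373 CPM, with 4 of 6 higher and 1 lower. Cornifying epidermis markers summed to 149 to 204 and 4.44 to 6.76 CPM. In E18 DKO nearly all of that sum was the single gene Sbsn, at 201, 161 and 144 CPM, and Krt1 was at 0. Only 3 of the 6 were tested, with 1 higher and 0 lower. Primitive erythroid markers summed to 17.3 to 19 and 698 to 2960 CPM, with all 3 lower. Of the endothelial markers 3 of 6 were higher, of the visceral yolk sac endoderm 2 of 8, of smooth muscle 1 of 5 and of neutrophils 2 of the 3 tested, with Elane at 0 in E18 DKO. For the yolk sac endoderm and smooth muscle these shares are near that of all genes. The part of these groups in the values of the clock genes was not tested.

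**Figure D3:**
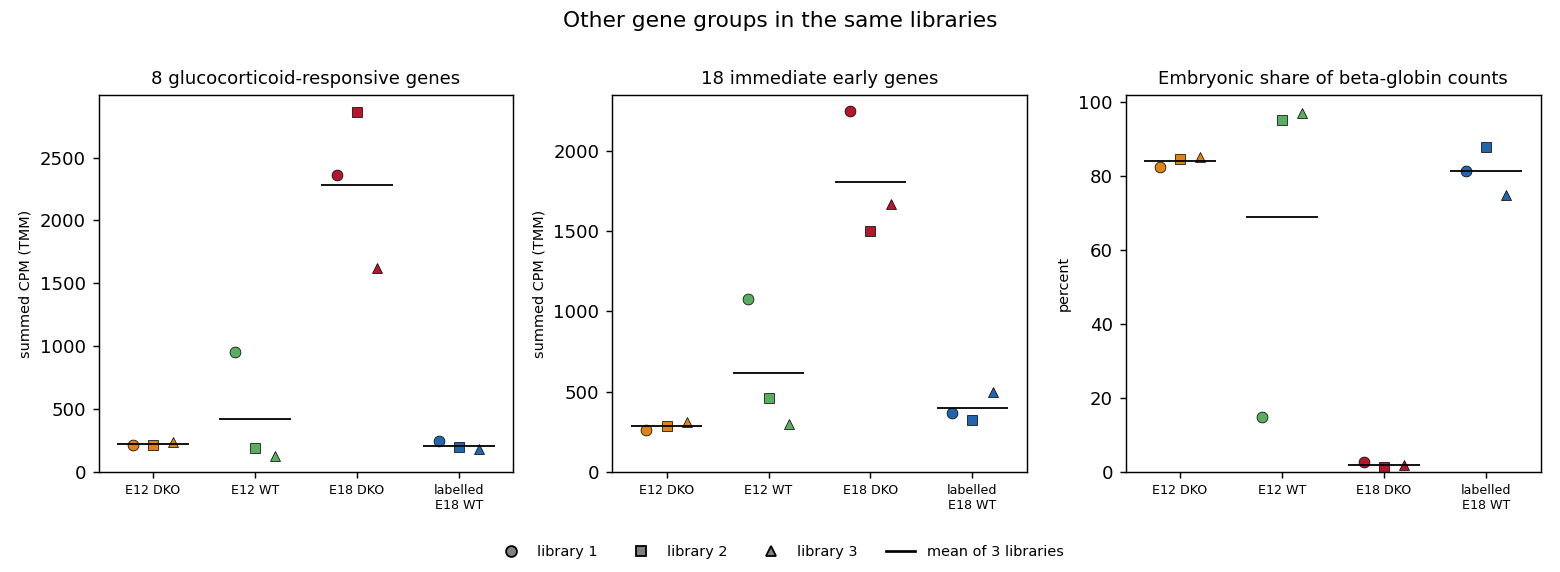
Summed CPM of the 8 glucocorticoid-responsive and the 18 immediate early genes, and the embryonic share of beta-globin counts in percent (vertical axes, from 0), in each library (points) with the mean of 3 as a line. E18 DKO is highest in both sums, and E12 WT 1 lies apart from E12 WT 2 and 3 in all 3 panels, with 949 and 1080 CPM and 14.8%.

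At E12 the clock genes showed no called difference between DKO and WT. By edgeR's quasi-likelihood test 0 of the 9 passed, where 0.353% of all tested genes were called. An unadjusted p under 0.05 was found for 3 of the 9, and for 4416 of the 18153 tested genes. DESeq2 called 1 of the 9 (11.5% of all genes) and limma voom 0 (0.43%). Cry1 had 24.3, 14.9 and 14.8 CPM in E12 WT and was below 12 CPM in each E12 DKO library (-0.67 ± 0.21, edgeR adjusted p = 0.106, and -0.66, 0.0314, by DESeq2). Nr1d1 had 21.6, 10.4 and 19.6 CPM in E12 WT, also above each E12 DKO library (-1.02 ± 0.36, edgeR adjusted p = 0.131). These 2 were the clock genes whose groups did not overlap, both lower in the DKO, as were 14.4% of all tested genes, and 0 were wholly higher (15.7%). Dbp had 9.38, 22.2 and 26.7 CPM in E12 WT, with E12 WT 1 just below the range of E12 DKO and E12 WT 2 and 3 above it (-0.81 ± 0.37, edgeR adjusted p = 0.205).

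E12 WT 1 stood apart from E12 WT 2 and 3 in most of these genes. Of the 6 libraries at E12 it was highest in 8 of the 10 genes and lowest for Dbp, whereas it was highest in 28.4% and lowest in 27.7% of all tested genes. E12 WT 3 was as extreme over all tested genes, highest in 27.8% and lowest in 29.1%. Of the 10 genes E12 WT 3 was lowest for Arntl, Per1, Per2 and Noct and highest for Dbp. Per1 had 103, 42.9 and 17.9 CPM in E12 WT 1, 2 and 3, and Per2 had 82.6, 40.3 and 30.4 CPM. E12 WT 1 was thus at the E18 DKO level for Per1, and E12 WT 3 was below all 11 other libraries. Arntl had 11.2, 5.39 and 2.77 CPM and Clock had 46.9, 24 and 26 CPM. Nr1d2 had 10.3, 5.71 and 5.53 CPM, and Per3 had 9.56, 6.78 and 7.94 CPM. Without E12 WT 1, Clock was higher in E12 DKO (0.48, edgeR adjusted p = 0.0342) and Dbp lower (-1.14, adjusted p = 0.0236), 2 of 9 clock genes, with 17.1% of all tested genes called. With E12 WT 3 left out instead, 9 genes were called, 0.0482% of those tested.

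E12 DKO was also set against labelled E18 WT, since the embryonic shares of beta-globin given above overlapped between them. The amount of globin differed: definitive erythroid markers summed to 303 to 1180 CPM in E12 DKO and 2100 to 5050 CPM in labelled E18 WT, though 0 of the 4 passed the edgeR test. Here too 0 of the 9 clock genes passed, and 0 had an unadjusted p under 0.05, as 1657 of the 18153 tested genes had (edgeR's quasi-likelihood test). The share of all tested genes called was 0.187%. DESeq2 and limma voom called 0 of the 9, with 1.36% and 0.0881% of all genes. The interval of the log2 fold change was widest for Per1, from -0.75 to 1.39. It ran from -0.06 to 1.56 for Per2 and from -1.59 to 0.05 for Nr1d1, so differences of this size are not excluded by a p above the threshold. Clock, Per2, Per3 and Dbp lay wholly higher in E12 DKO and Nr1d1 wholly lower (15.5% and 14.5% of all tested genes).

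Noct (chromosome 3, 51224447 to 51251644, plus strand) was chosen for its difference between the wild-type groups, so that difference is described and is no finding. It had 12.4, 5.28 and 3.35 CPM in E12 WT and 96.9, 46.8 and 46.2 CPM in labelled E18 WT. The lowest value rests on 57 counts (2.54 to 4.35 CPM, 95% exact Poisson interval, counting error only) and the highest on 2571. The means were 7.02 ± 4.78 CPM in E12 WT, 18.2 ± 1.17 in E12 DKO, 26.4 ± 0.873 in E18 DKO and 63.3 ± 29.1 in labelled E18 WT (SD, n = 3 each). In that order no group overlapped the next. Both DKO groups thus lay between the 2 wild-type groups, with E12 DKO 2.59-fold above E12 WT and E18 DKO 2.4-fold below labelled E18 WT. E12 DKO was 3.47-fold below labelled E18 WT.

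The wild-type difference in Noct, which chose it, was 9.02-fold between means (log2 3.17). It was 14.7-fold without E12 WT 1, 6.63-fold without labelled E18 WT 1, 10.2-fold without library 3 and 16.6-fold without E12 WT 1 and library 3. E12 WT 3, with the lowest Noct value (3.35 CPM) and a mitochondrial share of 21.2%, was kept in each of these settings. The 9 clock genes had smaller values in the same contrast, given as log2 fold changes with no test. Dbp was at -1.14, Per1 at -1.01, Per2 at -0.70, Per3 at -0.55 and Cry1 at -0.46. Nr1d1 was at -0.25, Clock at -0.20, Arntl at -0.01 and Nr1d2 at 0.12. Only Dbp, Per3 and Cry1 lay wholly lower in labelled E18 WT, and no clock gene wholly higher (8.6% and 9.29% of all tested genes). Without E12 WT 1, Per1 and Per2 were each at -0.17, Cry1 at -0.18, Arntl at 0.65, Nr1d2 at 0.48 and Dbp at -1.47. The direction for Clock then turned, from -0.20 to 0.17.

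Whether the hour of collection differed can be asked only through genes of opposite daily phase. Within each library the mean log2(CPM + 0.5) of Nr1d1, Nr1d2, Dbp, Per1, Per2 and Per3 minus that of Arntl, Clock and Npas2 was 0.37, 0.01 and 0.08 in E12 DKO and 0.09, -0.65 and 0.25 in E18 DKO. It was 0.13, 0.04 and 0.22 in labelled E18 WT and -0.07, 1.16 and 1.19 in E12 WT. E12 WT 2 and 3 stood above the other 10 libraries, and E12 WT 1 did not. Of single genes, Dbp minus Arntl was 1.95 and 3.06 in E12 WT 2 and 3 and at most 0.82 elsewhere, and was lowest in E18 DKO, at -0.74, -1.95 and -0.38. Nr1d1 minus Arntl was 1.71, 0.04 and 1.68 in E18 DKO and 0.16, 0.21 and -0.29 in E12 DKO. It was 1.07, 0.52 and 1.67 in labelled E18 WT and 0.92, 0.89 and 2.62 in E12 WT. The ranges of the wild-type groups overlapped. The transcripts of Dbp and Nr1d1 peak close together in adult tissues, and for Nr1d1 minus Arntl E18 DKO 2 lay within the range of E12 DKO while the other two E18 libraries lay above it. Per2 minus Arntl was 1.97 to 3.77 over the 12 libraries. The hour of collection was not tested by these values, since age, strain and the marker levels above differ between the same groups and libraries.

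**Figure D4:**
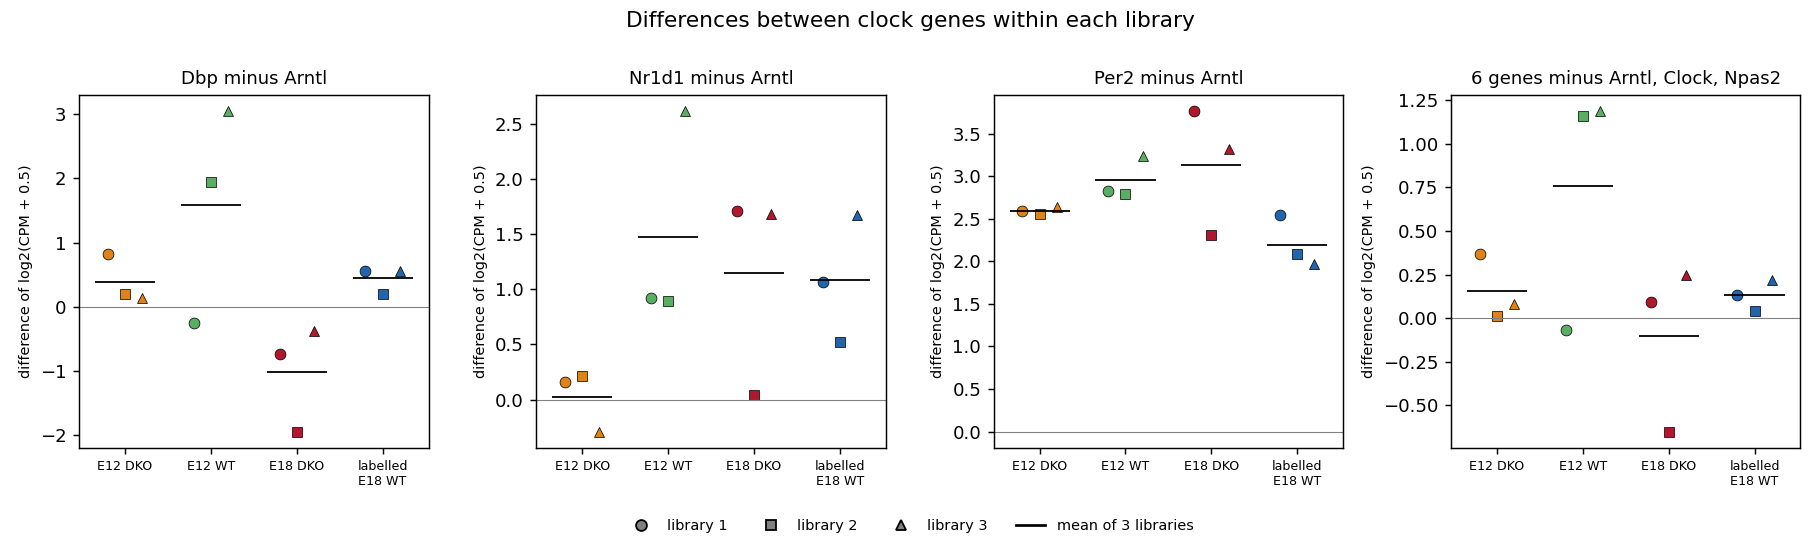
Differences of log2(CPM + 0.5) between clock genes within each library (points, shape by library number), with the mean of 3 libraries as a line. E12 WT 2 and 3 are the 2 highest libraries for Dbp minus Arntl (1.95 and 3.06) and for the difference of 6 genes minus Arntl, Clock and Npas2 (1.16 and 1.19).

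Of 21 other genes of the clock, 20 were tested between E18 DKO and E12 DKO, and 6 were higher and 5 lower (median log2 fold change -0.01), near the 23.2% and 22.8% of all tested genes. Csnk1e, a casein kinase that phosphorylates the PER proteins, rose by 1.10 ± 0.19 (edgeR adjusted p = 0.000995). Hlf, a relative of Dbp that acts at the same D-box, fell, with 10.3, 8.68 and 8.81 CPM in E12 DKO and 2.31, 1.71 and 2.51 CPM in E18 DKO (-2.09 ± 0.40, edgeR adjusted p = 0.00178). Of 8 clock outputs 5 rose and 1 fell (median 1.08), beside the same shares of all genes. Usp2, a deubiquitinase with a rhythmic transcript in many tissues, went from 11.5, 8.1 and 9.83 CPM to 51.5, 42.9 and 40.2 CPM (2.19 ± 0.19, edgeR adjusted p = 5.16e-05). Coq10b rose by 1.29 ± 0.22 (0.000929).

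Of the 8 glucocorticoid-responsive genes 7 rose and 0 fell between the DKO stages (median 3.33), where 23.2% of all tested genes rose and 22.8% fell, and Klf9 was at 0.87 ± 0.44 (edgeR adjusted p = 0.125). Tsc22d3, a glucocorticoid-induced gene that is also on the list of clock outputs, had 15.8, 14.1 and 14.9 CPM in E12 DKO versus 477, 496 and 338 CPM in E18 DKO (4.87 ± 0.90, edgeR adjusted p = 0.00155). Errfi1, a feedback inhibitor of the epidermal growth factor receptor, rose by 1.89 ± 0.31 (0.00079), and Cdkn1a, a cell cycle inhibitor, by 2.86 ± 0.48 (0.000887). All 17 tested immediate early genes of 18 listed rose (median 2.96), among them the cytokine feedback gene Socs3 (3.71 ± 0.39, 9.91e-05), the stress factor Atf3 (3.03 ± 0.34, 0.000132) and the nuclear receptor Nr4a1 (2.96 ± 0.38, 0.000217). Of the 11 deadenylases and other relatives of Noct 1 rose and 1 fell (median 0.22), a smaller share than the 46% called among all tested genes. Pan3, a subunit of a poly(A) nuclease, rose by 0.92 ± 0.17 (edgeR adjusted p = 0.00169), and Parn, a poly(A)-specific ribonuclease, fell by 0.91 (0.0098).

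The genes whose levels over the 12 libraries were most like those of Noct, among 13288 genes with a mean of at least 1 CPM, were Klhdc9 (Pearson r = 0.928), Epha4 (0.903), Rps3a1 (0.89), Cop1 (0.883) and Zfp287 (0.875). Epha4, an ephrin receptor, had 29.6, 16.1 and 21.7 CPM in labelled E18 WT and 10.8, 7.81 and 8.24 CPM in E12 WT. Rps3a1 encodes a ribosomal protein with many pseudogene copies, so its count is uncertain. For Dbp they were Mphosph6 (0.974), Fxyd1 (0.963), Vegfb (0.961), Tmem120b (0.954) and Phrf1 (0.948). Fxyd1, a regulator of the sodium pump, reached 33.9 and 50.1 CPM in E12 WT 2 and 3 and lay at 1.28 to 5.5 CPM in E18 DKO, and Vegfb, a vascular growth factor, reached 67.7 and 72.3 CPM and lay at 13.5 to 28.6 CPM. These correlations describe 12 libraries that share the 4 groups, so group differences enter them.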

How the data were processed

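The deposited values are raw counts per gene, not normalized, per the file headers. Per the labels' protocols, RNA was extracted from membranes frozen and ground in liquid nitrogen, and a TruSeq kit that keeps the strand was used. The submitters' processing notes name Trimmomatic 0.36 for trimming, STAR 2.4.2a, featureCounts from Subread 1.5.0, and build GRCm38. Per the file headers, counting used Ensembl release 86 and strand option 2, and reads aligned to several places were left out. Counts of 11 libraries came from their own files, each identical to 1 column of the series table, and those of E12 DKO 1 from that table.

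The edgeR 4.0.16 quasi-likelihood test (R 4.3.3) was run on genes kept by filterByExpr, with TMM scaling and 4 group means fitted to all 12 libraries at once. The fit had 8 residual degrees of freedom and a common biological coefficient of variation of 0.373. P-values were adjusted over 18153 genes and called under 0.05. Symbols were found for 48349 gene IDs. RPKM uses the exon length in the files, and log2 values have an offset of 0.5 CPM. As alternatives, the fit was repeated with library size alone or DESeq2 size factors, with DESeq2 1.42.0 or limma 3.58.1 voom as the test, with 2 other filters, with the replicate block, with only the 6 libraries compared, and with libraries left out. The procedure was tested on simulated data. Genes are named by a rule: the 10 genes, from each list up to 3 called genes with the lowest adjusted p between the DKO stages, and the 5 genes most like Noct and Dbp. Other genes of 2 lists were named after their values were seen, where the text says so. Some genes that met the rule are not reported here. The genes and lists were chosen with earlier results of these data known. Counting intervals cover counting error only. Figures were drawn with matplotlib 3.10.9.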

Additional observations from a re-analysis of the deposited data

Results flagged for a closer look

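Cry1 had opposite directions in the 2 genotypes between stages. Its log2 fold change was 1.08 between E18 DKO and E12 DKO, with every E18 library higher, and -0.46 between labelled E18 WT and E12 WT, with every library labelled E18 WT lower. That wild-type gap was narrow, at 14.5 CPM in labelled E18 WT 2 and 14.8 CPM in E12 WT 3. The wild-type value was -0.18 without E12 WT 1 and -0.09 without E12 WT 1 and labelled E18 WT 3. Between genotypes Cry1 was at -0.67 at E12, with every DKO library lower, and at 0.86 at E18, with every DKO library higher. Noct had the reverse signs between genotypes, at 1.37 at E12 and -1.26 at E18, again with no overlap. Of all tested genes 15.7% lay wholly higher in E12 DKO than in E12 WT. In E18 DKO 29.1% lay wholly lower than in labelled E18 WT. Noct was chosen for being low in one wild-type group and high in the other, so its opposite signs are partly built in and are no finding. The difference between these values was not tested for either gene, the contrasts share libraries, and the globins of labelled E18 WT and of E12 WT 1 go against their stage labels. No group has the 4 libraries that a check for single outlying libraries needs.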

How the results depend on the processing

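Counts of called genes at E12 depended most on the processing. Between E12 DKO and E12 WT 64 genes were called, and the count was 2085 with the DESeq2 Wald test, 0 with only these 6 libraries fitted, 5 with the replicate block, 2 without the 3 labelled E18 WT libraries, 3753 without E12 WT 1 and labelled E18 WT 3, and 1 to 3199 with 1 library left out. Among the 9 clock genes 0 were called there, 1 with DESeq2, 2 without E12 WT 1 and labelled E18 WT 3, and 0 to 2 with 1 library left out. Between E12 DKO and labelled E18 WT 34 genes were called, 247 with DESeq2, 16 with limma voom, 73 with only these 6 libraries, 21 with the replicate block and 9 to 60 with 1 library left out, and 0 clock genes in each of these. With 1 library left out, 6426 to 10014 genes and 4 to 6 of the 10 genes were called between the DKO stages (8349 and 6 in full), and 5833 to 9452 genes and 3 to 7 clock genes between E18 DKO and labelled E18 WT (7678 and 4). Library size alone split the calls 2809 higher and 5947 lower between the DKO stages (4203 and 4146 with TMM), 2382 and 6015 at E18 (3725 and 3953), and 41 and 14 at E12 (17 and 47). Under it the calls of Per2 between the DKO stages (0.63, adjusted p = 0.144) and of Cry1 (0.50, 0.0725) and Nr1d2 (0.61, 0.106) at E18 ended and that of Dbp at E18 was gained (-1.08, 0.0369). limma voom ended the call of Dbp between the DKO stages (-1.12, 0.0526), and DESeq2 added Nr1d1 at E18 (0.89, 0.0446). Without all 3 labelled E18 WT libraries the DKO stage calls of Per2 (0.0568) and Dbp (0.0767) ended. With Dbp, Nr1d1 and Nr1d2 minus Arntl and Npas2 the within-library difference moved by more than the group's spread in E12 WT 3 (2.07), E18 DKO 1 (-0.46) and 2 (-1.37) and in labelled E18 WT 2 (0.30) and 3 (0.64). The replicate numbers did not pair the libraries: 18 correlations of same-numbered deviations ran from -0.19 to 0.29, 4 of them over 0.1, and 7 were the best match of their library. With the replicate block the number of called clock genes was as without it in all 4 contrasts (6, 0, 4 and 0). DESeq2 gave no adjusted p for Tsc22d3. The cause of these changes was not tested. Depth limits Arntl, Noct and Nr1d2 in E12 WT 3, with 47, 57 and 94 counts, and Dbp in E18 DKO, with 77 to 135.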

Other observations

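The following members of the lists of clock genes and outputs, compared between E18 DKO and E12 DKO, were named after their values were seen. Npas2, the relative of CLOCK, had 4.93, 7.56 and 7.39 CPM in E12 DKO versus 42.4, 43.4 and 28 CPM in E18 DKO (log2 fold change 2.52 ± 0.76, edgeR adjusted p = 0.0195). E12 WT 1 also had 29.4 CPM, against 2.25 and 3.35 CPM in E12 WT 2 and 3. The call of Npas2 ended without E12 DKO 1, 2 or 3 (0.0713, 0.053 and 0.0539). Nfil3, a repressor at D-box DNA, rose by 1.89 ± 0.45 (edgeR adjusted p = 0.00584), from 20.8 to 27.8 CPM to 60.9 to 113 CPM. Tef, another D-box activator, was at -0.06 ± 0.17 (edgeR adjusted p = 0.813). Cry2 rose by 1.04 ± 0.34 (edgeR adjusted p = 0.026), a call that ended without E12 DKO 1, 2 or 3 (0.0835, 0.0719 and 0.0592) or E18 DKO 2 (0.1).

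Timeless and Tipin, whose proteins act at the replication fork, fell by 1.82 and 1.52 on the log2 scale (edgeR adjusted p = 0.00597 and 0.00739). Btrc and Fbxw11, ubiquitin ligase subunits that act on PER proteins, were each at -0.64 (edgeR adjusted p = 0.0087 and 0.039). The call of Fbxw11 ended without E12 DKO 1, 2 or 3 (0.0665, 0.107 and 0.0853), E18 DKO 1 or 3 (0.131 and 0.123) or labelled E18 WT 1 (0.0528). Among the outputs, Wee1, a kinase that holds back mitosis, fell by 1.07 (0.00797), Por, the electron donor of microsomal P450 enzymes, rose by 2.26 ± 0.43 (0.00177), and Tspan4, a tetraspanin, rose by 0.86 ± 0.17 (0.00205).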
